A study of Mus musculus with 2 samples.

Results

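The genes described here are 10 genes of the MHC class II pathway: the alpha and beta chain genes H2-Aa, H2-Ab1, H2-Eb1 and H2-Eb2, the invariant chain gene Cd74, the peptide editing genes H2-DMa, H2-Oa and H2-Ob, the lysosomal thiol reductase gene Ifi30, and Ciita, the regulator of the others. They were chosen by name, as the probe sets that carry one of these symbols and no other, out of 19937 genes with such a probe set. All 10 were found, each with 1 probe set. Langerhans cells, the antigen-presenting cells of the epidermis, had been sorted as Langerin-positive, Epcam-positive cells from mice aged 8 to 12 weeks. In one group (Il34LacZ/LacZ) both copies of Il34, which encodes a ligand of the CSF1 receptor, carried a LacZ allele, and in the other (Il34+/LacZ) 1 copy did. Both groups had received ultraviolet light for 30 min, and cells were taken 21 days later, so neither group is wild type or unexposed. Each group was measured on 1 array of biotinylated cRNA made from 2 ng of total RNA, and the labels do not say how many animals gave that RNA. Il34 itself read 64.4 in Il34LacZ/LacZ and 39.4 in Il34+/LacZ, near the median of all probe sets. Where its probes lie relative to the LacZ allele is not known here, so this reading checks nothing.

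MHC class II molecules present peptides from the endosomal pathway to CD4 T cells, and Langerhans cells are known for carrying them at high levels in the epidermis. The alpha and beta chains assemble in the endoplasmic reticulum with the invariant chain, which fills the peptide groove and directs the complex to endosomes. There proteases trim the invariant chain to a remnant that H2-DM exchanges for peptide, a step that H2-O holds back. CIITA does not bind DNA itself. It is recruited by factors that sit on the X and Y boxes of class II promoters and turns on the genes of this pathway together.

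The X and Y boxes can be read in the promoters of some of the members, and they are shown because they are the elements through which CIITA acts. RefSeq promoters (assembly GRCm38.p6, from 250 bases before to 50 bases after a gene's start) were at hand for 7 of the 10 members, in 8 windows. None was at hand for H2-Ab1, Cd74 or Ciita. The letters GATTGG, the core of the Y box, were found on the gene's strand in 6 of these 8 windows, and on either strand in 16.1% of 32851 promoters. GCAAC, a core of the X box chosen after the promoters had been read, was followed by GATTGG within 40 bases in 5 of the 8 windows, against 0.630% of all promoters on either strand. H2-DMa had GATTGG but not this pair, and Ifi30 had neither. CAACNG, a longer core that shares the letters CAAC with GCAAC, occurred on either strand in 3 of the 8 windows and 35.0% of all promoters. It was followed by GATTGG in 2 of the 8 windows, against 0.597% of all promoters. The 5 stretches are given 5′ to 3′ on the gene's strand, with GCAAC and GATTGG in capitals.
H2-Aa (chr17:34287859-34287912, minus strand): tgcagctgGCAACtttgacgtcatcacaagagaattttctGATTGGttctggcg
H2-Eb1 (chr17:34305768-34305820, plus strand): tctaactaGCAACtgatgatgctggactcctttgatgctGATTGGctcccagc
H2-Eb2 (chr17:34325535-34325587, plus strand): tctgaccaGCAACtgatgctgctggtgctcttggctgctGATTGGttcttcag
H2-Oa (chr17:34092295-34092348, plus strand): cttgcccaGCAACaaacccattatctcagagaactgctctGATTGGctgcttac
H2-Ob (chr17:34238810-34238860, plus strand): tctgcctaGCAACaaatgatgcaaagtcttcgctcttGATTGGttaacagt
Between GCAAC and GATTGG lay 27 bases in H2-Aa and H2-Oa, 26 in H2-Eb1 and H2-Eb2, and 24 in H2-Ob. The stretches of the paralogues H2-Eb1 and H2-Eb2 were identical at 38 of 53 positions. These are matches of letters, not measured binding.

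All 10 class II genes read lower in Il34LacZ/LacZ than in Il34+/LacZ, by between 1.06-fold for H2-Ab1 and 2.98-fold for Ciita. A lower reading was also common elsewhere, in 7230 (56.3%) of the 12843 genes at or above the floor defined below. Cd74 and both chains of I-A differed least, and the regulator differed most. The difference is given as log2(intensity + 16) of Il34LacZ/LacZ minus that of Il34+/LacZ, and folds are on this scale, which understates the difference of dim genes. With 1 array a group there is no replicate, no test and no p-value. A gene is called at or above the floor if its brighter array reached the median of all probe sets, an intensity of 48.7, and each of the 10 members was above it on both arrays. The only error in the file is the disagreement between probe sets of one gene, an SD of 0.63 on the log2 scale over 614 genes (1.55-fold), which leaves out animals, sorts and amplification and could not be measured for the members themselves.

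**Figure D1:**
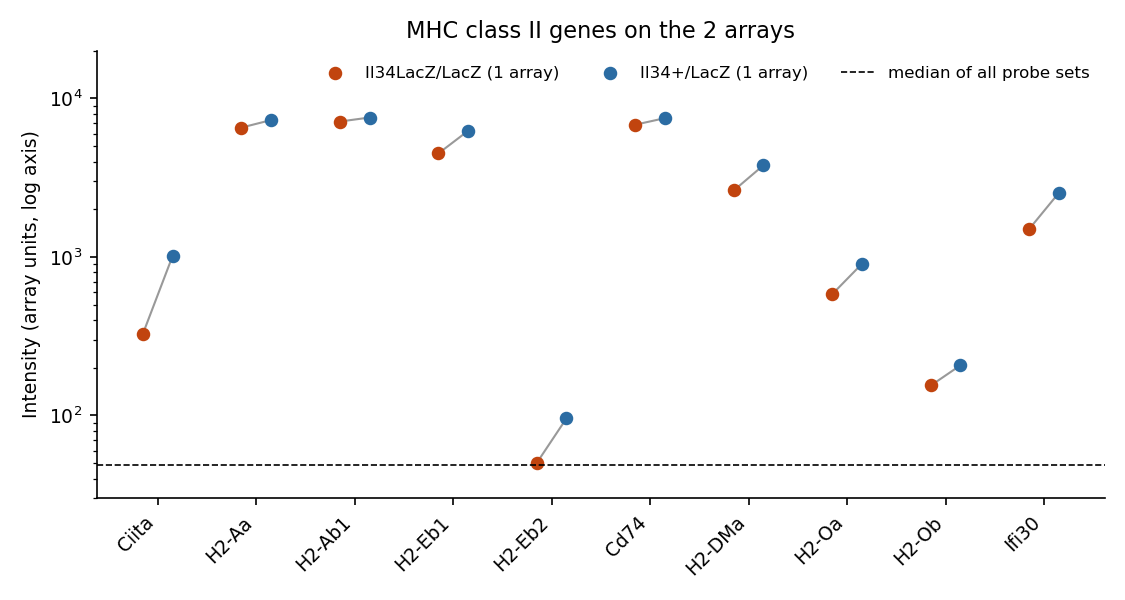
Intensity (array units, log axis) of the 10 class II genes on the Il34LacZ/LacZ array (left point of each pair) and the Il34+/LacZ array (right point), 1 array each, with the median of all probe sets as a dashed line. Each left point is lower than its partner, most clearly for Ciita (328.6 against 1011), while H2-Eb2 is near the dashed line.

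Across the arrays most genes of middle and high level also had a lower reading in Il34LacZ/LacZ. The floor was reached by 12843 genes, and 29.9% of them were lower by 1.5-fold or more and 16% higher by as much, and the median difference was -0.16. Genes of different levels had different typical readings, so each difference was also computed after a smooth trend with level (loess) had been removed, which brings genes of any one level to a centre near 0. After that, 18.6% of genes were lower and 13.9% higher by 1.5-fold or more. Of the 10 members, 4 were at least 1.5-fold lower as deposited (Ciita, H2-Eb2, Ifi30 and H2-Oa) and 0 higher, and 2 were lower with the trend removed (Ciita and H2-Eb2) and 0 higher. The median of the members was -0.50 as deposited and -0.047 with the trend removed, when 6 lay below 0 and 4 above. The shares of all genes are close to these counts, so the list as a whole is not set apart by them.

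**Figure D2:**
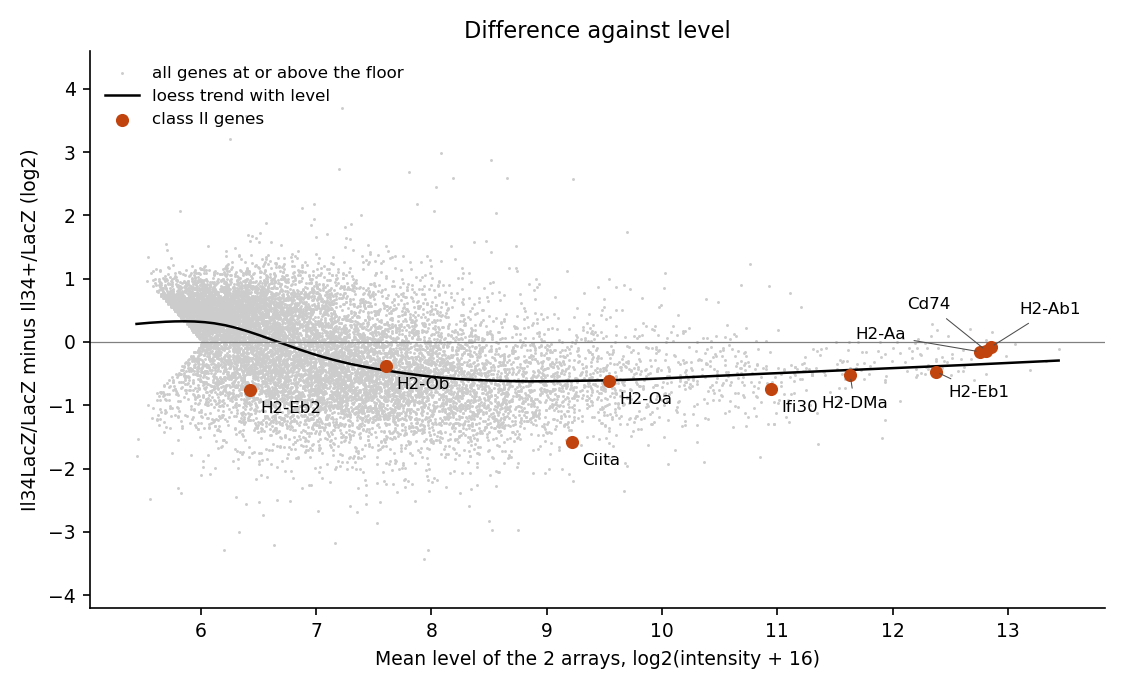
Difference between the genotypes (Il34LacZ/LacZ minus Il34+/LacZ, log2) against the mean level of the 2 arrays, log2(intensity + 16). Grey points are the 12843 genes at or above the floor, the line is the loess trend and the labelled points are the class II genes: H2-Ab1, Cd74 and H2-Aa lie above the line, and Ciita (-1.58) and H2-Eb2 (-0.75) lie furthest below it.

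Ciita, which encodes the transactivator of class II genes, read 328.6 in Il34LacZ/LacZ and 1011 in Il34+/LacZ. It was thus 2.98-fold lower in Il34LacZ/LacZ (-1.58 on the log2 scale), or 2.49 times the SD between probe sets of one gene. Its place among the 19937 genes ordered by intensity was 1316 in Il34LacZ/LacZ and 503 in Il34+/LacZ, a comparison that no rescaling of a whole array can alter. The 500 genes nearest to Ciita in mean level had a median difference of -0.62, and 90% of them lay between -1.39 and 0.27. Ciita lay below that range, with 12 of the 500 (2.40%) further down. Of all 12843 genes, 305 (2.37%) had a lower difference. With the trend removed Ciita stood at -0.96, and 993 genes (7.73%) stood lower. Ciita was the one member of the 10 that differed by more than 2-fold, which 13.2% of all genes did in the same direction. The size of the difference ran from 0.94 to 1.73 on the log2 scale, always lower in Il34LacZ/LacZ, over the 12 ways in which it was computed. Those that changed only the floor or the probe set rule could not alter it.

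**Figure D3:**
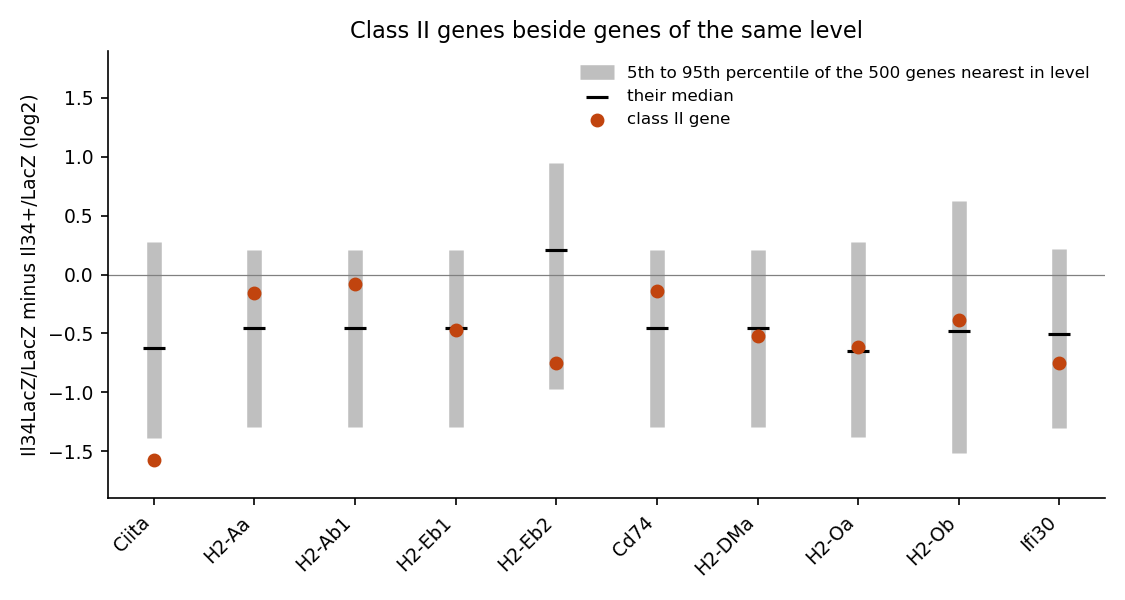
Difference between the genotypes (Il34LacZ/LacZ minus Il34+/LacZ, log2) of each class II gene (points) beside the 500 genes nearest to it in mean level, whose 5th to 95th percentile is the grey bar and whose median is the black dash. Ciita (-1.58) lies below its bar, which ends at -1.39, and the other 9 genes lie within theirs.

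The classical class II chains were among the brightest genes of both arrays. H2-Ab1, the beta chain of I-A, read 7154 in Il34LacZ/LacZ and 7582 in Il34+/LacZ and stood 8th among 19937 genes on both. H2-Aa, the alpha chain of I-A, read 6551 in Il34LacZ/LacZ and 7304 in Il34+/LacZ and stood 12th on both. The 2 chains of I-A thus kept their place in the order of genes, with differences of -0.08 and -0.16 that are well within the SD between probe sets. With the trend removed they stood at 0.26 and 0.20, so their sign depends on the scaling. H2-Eb1, the beta chain of I-E, read 4502 in Il34LacZ/LacZ and 6244 in Il34+/LacZ, a difference of -0.47 (-0.09 with the trend removed). It stood 43rd in Il34LacZ/LacZ and 26th in Il34+/LacZ. H2-Eb1 was lower than H2-Ab1 by 0.39 in this difference, which is less than the SD of 0.90 that probe sets give a difference between a pair of genes.

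The other chain genes were dim. H2-Eb2, a second beta chain gene beside H2-Eb1, read 50.4 in Il34LacZ/LacZ and 95.9 in Il34+/LacZ, which is 1.03 and 1.97 times the floor. Its difference was -0.75 as deposited (1.69-fold lower in Il34LacZ/LacZ) and -0.91 with the trend removed, because genes of its low level tended to read higher in Il34LacZ/LacZ, with a median of 0.21 over the nearest 500. Of those 500, 53 (10.6%) lay further down, and of the nearest 100 genes 17 did. H2-Ea, the alpha chain partner of H2-Eb1 and named after its values were seen, read 31.4 in Il34LacZ/LacZ and 37.2 in Il34+/LacZ, below the floor in both. Some laboratory strains do not express H2-Ea, and the labels do not give the strain of these mice.

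Cd74, the invariant chain, read 6837 in Il34LacZ/LacZ and 7514 in Il34+/LacZ and stood 10th among all genes on both arrays. Its difference was -0.14, and 0.21 with the trend removed. The 3 brightest members, Cd74, H2-Ab1 and H2-Aa, lay at the 80.0, 85.0 and 77.8 percentile of the 500 genes nearest in level. Those 500 genes reached down to a mean intensity of 795.9, since only 6 to 11 genes were brighter than each of the 3. Among the nearest 100 genes, a number chosen after the data were seen, they lay at the 72, 82 and 67 percentile. H2-Eb1 lay at the 48.8 percentile of the nearest 500 and at the 23 percentile of the nearest 100, so its place among bright genes depends on that number.

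The peptide editing genes were lower in Il34LacZ/LacZ as deposited and near 0 with the trend removed. H2-DMa, the alpha chain of the editor that removes the invariant chain remnant, read 2631 in Il34LacZ/LacZ and 3791 in Il34+/LacZ, a difference of -0.52 (-0.08 with the trend removed). H2-Oa and H2-Ob encode the alpha and beta chains of H2-O, the inhibitor of H2-DM. H2-Oa read 583.9 in Il34LacZ/LacZ and 905.4 in Il34+/LacZ, a difference of -0.62 (1.54-fold lower, -0.01 with the trend removed). H2-Ob read 154.7 in Il34LacZ/LacZ and 207.3 in Il34+/LacZ, a difference of -0.39 (0.06 with the trend removed). All 3 lay between the 42.8 and 57.4 percentile of the 500 genes nearest in level. Among the nearest 100, H2-DMa lay at the 30 percentile, H2-Oa at 57 and H2-Ob at 55. H2-DMb1 and H2-DMb2, the beta chain genes of H2-DM, had no probe set of their own and are not reported.

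Ifi30, which encodes the thiol reductase GILT that opens disulfide bonds of proteins in endosomes, read 1507 in Il34LacZ/LacZ and 2542 in Il34+/LacZ. The difference was -0.75 (1.68-fold lower in Il34LacZ/LacZ) and -0.25 with the trend removed. It stood 181st among all genes in Il34LacZ/LacZ and 156th in Il34+/LacZ, and lay at the 29.6 percentile of genes of its level.

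The difference of Ciita exceeded that of most, but not all, of the genes it controls by more than the pair SD. The difference of Ciita was below that of H2-Ab1 by 1.49, of Cd74 by 1.44, of H2-Aa by 1.42 and of H2-Eb1 by 1.11, each more than the pair SD of 0.90. It was below that of H2-Ob by 1.19, of H2-DMa by 1.05 and of H2-Oa by 0.96. Against Ifi30 and H2-Eb2 the gap was 0.83 and 0.82, less than that SD. With the trend removed the gap to H2-Ab1, Cd74 and H2-Aa was 1.22, 1.17 and 1.16, to H2-Ob 1.02 and to H2-Oa 0.95, and that to H2-DMa and H2-Eb1 was 0.88 and 0.87, just inside the SD. To Ifi30 it was 0.71, and to H2-Eb2 only 0.052, both less than the pair SD. A gap above this SD does not by itself set Ciita apart from a gene. The SD leaves out animals, sorts and amplification, and Ciita was the member that differed most. The most intense probe sets are close to the top of the arrays' range, which ended at 13768 in Il34LacZ/LacZ and 13748 in Il34+/LacZ, and whether differences are compressed there was not tested.

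Factors that bind class II promoters or help CIITA were lower in Il34LacZ/LacZ more often as deposited than with the trend removed. Of 16 measured transcription factors and coactivators, 9 were lower by 1.5-fold or more and 0 higher (median -0.60), and 3 and 0 once the trend was taken out (median -0.09). Of all genes at or above the floor, 29.9% were lower and 16% higher by as much. With the trend removed these shares were 18.6% and 13.9%, and both pairs of shares belong beside each list below. Rfx5, Rfxap and Rfxank, the subunits of the X box factor RFX, differed by -0.57, 0.07 and -0.59, with readings between 55.8 and 155.5 in Il34LacZ/LacZ and between 90.7 and 149.8 in Il34+/LacZ. These were named after their values were seen. Nfyb, a subunit of the Y box factor NF-Y, read 45.2 in Il34LacZ/LacZ, below the floor, and 200.5 in Il34+/LacZ, at least 3.34-fold lower. Nfyc, another NF-Y subunit, read 82.5 in Il34LacZ/LacZ and 265.4 in Il34+/LacZ, 2.86-fold lower, but its other probe set differed by 0.18. Spi1, the myeloid factor PU.1, was 1.97-fold lower (885.7 in Il34LacZ/LacZ, 1759 in Il34+/LacZ) and the coactivator Crebbp 1.87-fold lower. With the trend removed Spi1 and Crebbp differed by -0.43 and -0.28.

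Receptor and kinase genes of interferon gamma, the cytokine best known for inducing Ciita, gave mixed readings. Of 10 measured genes, 6 were lower by 1.5-fold or more in Il34LacZ/LacZ and 0 higher (median -0.64), or 3 and 1 once the trend was taken out (median -0.06). The kinases Jak2 and Jak1 were 2.46-fold and 2.42-fold lower, or -0.70 and -0.66 with the trend removed. Ifngr1, the ligand-binding receptor chain, was 2.06-fold lower (256.4 in Il34LacZ/LacZ, 545.4 in Il34+/LacZ). Ifngr2, the signalling chain and a gene named after its values were seen, read 911.2 in Il34LacZ/LacZ and 635.9 in Il34+/LacZ, a difference of 0.51 (1.11 with the trend removed). The phosphatase Ptpn2 was 1.79-fold lower, but its other probe set differed by 0.03.

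**Figure D4:**
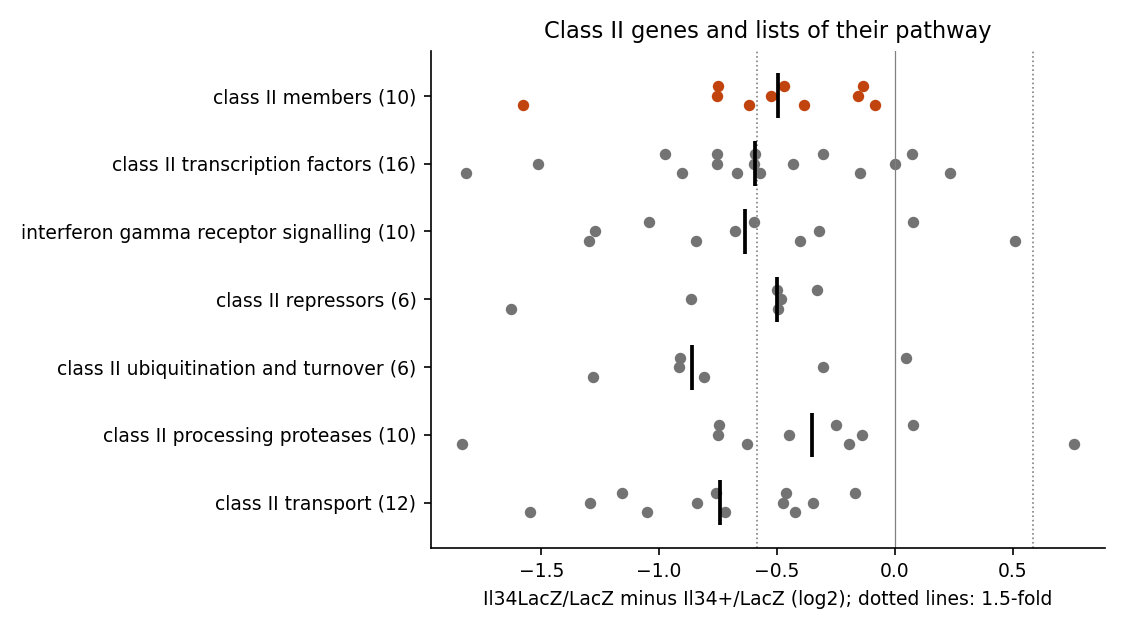
Difference between the genotypes (Il34LacZ/LacZ minus Il34+/LacZ, log2, as deposited) of each gene at or above the floor in the class II genes and in 6 lists of their pathway, with the number of genes in brackets, the median as a black bar and 1.5-fold as dotted lines. All 7 medians lie below 0, between -0.35 for the processing proteases (with Cst3) and -0.86 for ubiquitination and turnover. The median of all genes at or above the floor, not drawn, was -0.16.

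Among genes listed as repressors of class II, 2 of 6 were lower by 1.5-fold or more in Il34LacZ/LacZ and 0 higher (median -0.50), or 3 and 0 with the trend removed (median -0.34). Bcl6, a transcriptional repressor of lymphoid and myeloid cells, was 3.10-fold lower, with 168.7 in Il34LacZ/LacZ and 556.0 in Il34+/LacZ, and stood at -1.03 with the trend removed. Prdm1, which encodes the Ciita repressor Blimp-1, read 47.3 in Il34LacZ/LacZ, below the floor, and 99.1 in Il34+/LacZ, at least 1.78-fold lower. Genes for class II ubiquitination and turnover had a median of -0.86 over 6 genes, 4 of them lower and 0 higher, and of -0.38 with the trend removed, when 1 was lower and 0 higher. Cd83, which shields class II from the ubiquitin ligase MARCH1, read 2145 in Il34LacZ/LacZ and 4049 in Il34+/LacZ, 1.88-fold lower (-0.46 with the trend removed). Marchf1, the gene of that ligase and named after its values were seen, read 176.9 in Il34LacZ/LacZ and 170.6 in Il34+/LacZ. Tollip, an adaptor that binds ubiquitin, was 2.43-fold lower (-0.73 with the trend removed). The ubiquitin-conjugating enzymes Ube2d2a and Ube2d1 were 1.89-fold and 1.75-fold lower, or -0.30 and -0.19 with the trend removed, and the other probe set of Ube2d2a differed by -0.35 as deposited.

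Genes of the proteases that cut the invariant chain or antigen, listed together with the cathepsin inhibitor gene Cst3, differed in both directions. Of these 10 measured genes, 4 were lower by 1.5-fold or more in Il34LacZ/LacZ and 1 higher (median -0.35), or 1 and 2 once the trend was taken out (median 0.05). Sppl2a, the intramembrane protease that clears the last invariant chain fragment, read 199.2 in Il34LacZ/LacZ and 753.5 in Il34+/LacZ, 3.58-fold lower (-1.22 after removal of the trend). It was the member of this list that differed most. Ctsl, the cathepsin that cuts the invariant chain in thymic epithelium, read 299.0 in Il34LacZ/LacZ and 169.9 in Il34+/LacZ, 1.69-fold higher. Ctss, which does so in dendritic cells and was named after its values were seen, read 2466 in Il34LacZ/LacZ and 2718 in Il34+/LacZ. Ctsb and Ctsh were 1.68-fold lower each, but stood at -0.15 and -0.14 with the trend removed.

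Transport genes of the class II compartment had a median of -0.74 over 12 genes, 7 of them lower by 1.5-fold or more in Il34LacZ/LacZ and 0 higher, or a median of -0.13 with 3 lower and 0 higher once the trend was removed. Rab7b, a GTPase of late endosomes, was 2.93-fold lower (86.3 in Il34LacZ/LacZ, 283.4 in Il34+/LacZ). Lyst, a regulator of lysosome size, was 2.45-fold lower and Ap3b1, a subunit of the adaptor AP-3, 2.23-fold lower. The tetraspanin gene Cd82 was 2.07-fold lower, or -0.54 with the trend removed. Among 3 measured genes of class I that CIITA or its relative NLRC5 concerns, B2m, the class I light chain and named after its values were seen, read 3776 on both arrays, 1 of 448 probe sets with the same value on each. Nlrc5, the class I transactivator, was represented by a probe set that was 1.53-fold lower, but its 19 probe sets ranged from -2.92 to 0.92, 9 of them at least 1.5-fold lower and 2 higher, so no direction is given for it. That range shows how far probe sets of a gene can disagree, and the class II members had none to compare.

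Markers of other cells were read in both samples and differed between them. In a bulk sample fewer cells of a type and less RNA per cell cannot be told apart. Of the sorting markers, Cd207 (Langerin) read 1852 in Il34LacZ/LacZ and 3153 in Il34+/LacZ, 1.70-fold lower, while Epcam read 707.7 in Il34LacZ/LacZ and 632.9 in Il34+/LacZ. Langerhans cell markers as a list had a median of -0.67 over 9 genes, 5 lower and 0 higher (-0.06, 0 lower and 1 higher with the trend removed), and summed to 8758 in Il34LacZ/LacZ and 13365 in Il34+/LacZ. Their other named genes were Tgfbr1 (2.19-fold lower), Csf1r (1.65-fold lower), Cd24a (1.62-fold lower) and Ptprc (1078 in Il34LacZ/LacZ, 1346 in Il34+/LacZ). The 10 class II genes summed to 30299 in Il34LacZ/LacZ and 37197 in Il34+/LacZ, most of it from Cd74, H2-Ab1, H2-Aa and H2-Eb1. These 2 sums hold genes of different level, so they do not tell which list differed more. With the trend removed the class II median was -0.047, near that of the Langerhans cell markers.

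Keratinocyte markers, of cells that carry little class II, summed over 10 genes to 716.5 in Il34LacZ/LacZ and 4124 in Il34+/LacZ, with 8 of the 9 at or above the floor at least 1.5-fold lower and 0 higher, also with the trend removed. Krt14 and Krt5 were 10.8-fold and 7.82-fold lower, Krt1 at least 6.67-fold and Perp 5.92-fold. Macrophage and monocyte markers, of cells that can carry class II, summed over 11 genes to 3898 in Il34LacZ/LacZ and 2178 in Il34+/LacZ, with 4 of 10 higher and 1 lower (6 and 0 with the trend removed). Pf4, Ms4a7 and C1qa were 6.04-fold, 3.54-fold and 2.26-fold higher, C1qb and C1qc 1.32-fold and 1.29-fold higher, and Adgre1 1.85-fold lower. T cell markers, of cells that lack class II in mice, summed over 7 genes to 6787 in Il34LacZ/LacZ and 7569 in Il34+/LacZ, with 1 of 7 lower and 0 higher as deposited and 1 lower and 2 higher with the trend removed. Cd3e, Cd3g and Cd3d, of the T cell receptor complex, read 1250, 1635 and 537.3 in Il34LacZ/LacZ, against 1245, 1496 and 743.9 in Il34+/LacZ, while Cd4 was 1.69-fold lower.

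B cells and conventional dendritic cells also carry class II. B cell markers were near or below the floor, at between 12.7 and 77.1 in Il34LacZ/LacZ and between 9.23 and 67.2 in Il34+/LacZ over 7 genes, with sums of 310.0 in Il34LacZ/LacZ and 230.7 in Il34+/LacZ. Ms4a1, which encodes CD20, read 12.7 in Il34LacZ/LacZ and 9.23 in Il34+/LacZ, and the B cell receptor subunit Cd79a read 29.4 in Il34LacZ/LacZ and 16.2 in Il34+/LacZ, both below the floor in each sample. The 3 B cell genes at or above the floor had a median of 0.29, with 0 lower and 0 higher. Conventional dendritic cell markers summed over 10 genes to 2591 in Il34LacZ/LacZ and 4887 in Il34+/LacZ, with 4 of 8 lower and 0 higher (2 and 0 with the trend removed). Xcr1 and Clec9a, of the cross-presenting subset, were below the floor in both samples (38.1 and 35.4 in Il34LacZ/LacZ, 27.3 and 21.0 in Il34+/LacZ), and Zbtb46 read 91.5 in Il34LacZ/LacZ and 84.1 in Il34+/LacZ. Flt3, Sirpa, Itgae and Irf4 were 2.53-fold, 2.32-fold, 2.22-fold and 1.59-fold lower, or -0.84, -0.67, -0.54 and -0.05 with the trend removed. Sirpa (869.8 in Il34LacZ/LacZ, 2040 in Il34+/LacZ) and Itgae (479.3 and 1082) were the brightest of the 10 and weigh most in the sums. The part of keratinocyte, macrophage and dendritic cell transcripts in the class II readings was not tested.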

How the data were processed

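Langerhans cells of 2 genotypes were measured on 1 array each. The values the authors deposited are linear intensities, 1 for each probe set on each array, above 0 throughout. The probe annotation names a 1-colour Affymetrix mouse gene array. How background was removed, probes combined and arrays scaled is not given in the sources used here, and scanner files and detection calls were not used here. The number of arrays limits the precision. Of 34760 probe sets, 21640 had 1 gene symbol, 1321 several and 11799 none, and only the first were named. A gene with several probe sets was represented by the one with the highest mean, and 12843 of 19937 genes reached the floor. On both arrays 448 probe sets had the same value, none of them a member's.

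Values were transformed as log2(intensity + 16). The loess trend (fraction 0.3) was fitted to probe sets with 1 symbol. Each member was set beside the 500 genes nearest in mean level, as a description. Named genes were the 10 members, up to 4 genes of each other list with the largest difference of at least 1.5-fold, and the first 3 genes of each marker list, with the targeted gene Il34, and any other gene is said to be named after its values were seen. The members and lists were chosen with earlier results of these data known. Alternatives changed the pseudocount, floor, probe set rule, scaling, trend and fold. Promoters are from RefSeq, and all 10 members matched its gene table by gene number. The calculation was tested on simulated data, with differences larger than any member's and noise below the SD between probe sets. That setting does not tell how well smaller differences are recovered. The tools were statsmodels 0.14.6, pandas 2.3.3, numpy 2.4.6, scipy 1.17.1 and matplotlib 3.10.9 under Python 3.11.15.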

Additional observations from a re-analysis of the deposited data

How the results depend on the processing

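No class II gene was at least 1.5-fold higher in Il34LacZ/LacZ under any of the 12 alternatives, and Ciita was at least 1.5-fold lower under each that used that threshold. The number of members at least 1.5-fold lower was 4 as deposited, 2 with a pseudocount of 64, with quantile normalization and with the loess trend removed at any of its 3 fractions, 1 with each array scaled to its upper quartile, 3 with the floor at the 75th percentile, which left out H2-Eb2, and 6 when arrays were centred on their medians, which added H2-Eb1 and H2-DMa. At 2-fold it was 1, and 13.2% of all genes at or above the floor were lower by as much. At 1.5-fold the share of all genes was 29.9% as deposited and 22.1% with a pseudocount of 64. Among genes that reached the floor at the 75th percentile it was 47.6%. With the trend removed at fractions of 0.3, 0.15 and 0.6 it was 18.6%, 18.3% and 18.8%. The median difference of the members was -0.50 as deposited, -0.65 with median centring, -0.20 with upper quartile scaling, -0.15 with quantile normalization, and -0.047, -0.068 and 0.051 with the trend removed at fractions of 0.3, 0.15 and 0.6. The last of these put 7 of the 10 members above 0, among them H2-Eb1 at 0.14, H2-DMa at 0.097 and H2-Oa at 0.0062, which were below 0 in the other 11 computations. Upper quartile scaling moved the median of all genes from -0.16 to 0.16, and put 29.7% of genes at least 1.5-fold higher and 17.7% lower. Centring each array on its median moved it to -0.33, with 9.08% higher and 38.0% lower, and quantile normalization to 0.03, with 17.5% higher and 19.6% lower. Changes to the floor and the probe set rule could not alter a member's value. H2-Aa, H2-Ab1 and Cd74 were negative in 8 of 12 computations each and H2-Ob in 9 of 12, so no direction across scalings is given for these 4 or for H2-Eb1, H2-DMa and H2-Oa. Ciita, Ifi30 and H2-Eb2 were negative in each computation that held them, 12 for Ciita and Ifi30 and 11 for H2-Eb2. With 1 array a genotype no array could be left out. No paired analysis was possible because each genotype has a single array. Depth is not defined for arrays, and H2-Eb2, at 1.03 times the floor in Il34LacZ/LacZ, is the member whose signal limits it most.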

Other observations

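The 7 H2 members lie on one stretch of chromosome 17 in the RefSeq annotation, with other genes between some of them. On it 15 genes are annotated from the first to the last member, and 12 of these were measured. The 5 measured genes between them that are not members had a median difference of -0.87, with 3 lower by 1.5-fold or more in Il34LacZ/LacZ and 0 higher, against -0.47 for the 7 members. With the trend removed the medians were -0.25 and -0.01, with 2 of the 5 lower and 0 higher. Tap1, a subunit of the class I peptide transporter, read 114.0 in Il34LacZ/LacZ and 374.9 in Il34+/LacZ, 3.01-fold lower. Psmb9, a subunit of the immunoproteasome, was 2.21-fold lower (814.6 in Il34LacZ/LacZ, 1819 in Il34+/LacZ) and the bromodomain gene Brd2 1.83-fold lower. Tap2 and Psmb8, their partners in the transporter and the immunoproteasome, differed by -0.57 and -0.38. With the trend removed Tap1, Psmb9 and Brd2 stood at -1.08, -0.59 and -0.25, and Tap2 and Psmb8 at -0.04 and 0.23. Tap1 was as far down as Ciita as deposited, at -1.59 and -1.58. The 7 H2 members on the stretch lay between -0.75 for H2-Eb2 and -0.08 for H2-Ab1, a span that holds Tap2 and Psmb8. The 5 genes that are not members were named by their position after the data had been seen, and the difference between them and the members was not tested.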
